A study of Mus musculus with 3 samples.

Results

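The genes described here are 10 genes of iron storage and transport: Fth1, Ftl1, Hmox1, Trf, Tfrc, Slc11a2, Cp, Slc40a1, Ireb2 and Aco1. They were selected by gene name, with earlier results of these data known, and all 10 were found among the 54532 genes of the deposited expression table. The table comes from RNA-seq of hippocampus of C57BL/6 mice aged 10 months, with 1 library for each of 3 genotypes. WT animals carry neither modification. PS19 mice express mutant human tau from a transgene under the mouse prion promoter (Prnp) and serve as a tauopathy model; the human transgene was not analysed here. The third genotype, labelled PS19 Zbp1+- and written PS19 Zbp1+/- below, has the same transgene with 1 allele of Zbp1, a sensor of left-handed nucleic acids, removed. The labels do not say whether animals were pooled. With 1 library per genotype there is no spread between replicates, so no difference below has a test, and every interval covers counting error only. All values compare libraries.

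Iron is needed for respiration, myelin lipid synthesis and neurotransmitter synthesis, and free ferrous iron drives oxidative damage. Cells store it in ferritin, a shell of heavy chains (Fth1), which oxidise iron, and light chains (Ftl1), which help the mineral core to form. Transferrin (Trf) carries ferric iron to the transferrin receptor (Tfrc), Slc11a2 moves the reduced iron out of the endosome, and ferroportin (Slc40a1) exports it, helped by the ferroxidase ceruloplasmin (Cp). Haem oxygenase (Hmox1) releases iron from haem. The regulatory proteins encoded by Aco1 and Ireb2 bind hairpins in messenger RNAs when iron is scarce: a hairpin in the 5′ UTR then holds back translation, and hairpins in the 3′ UTR stabilise the transcript. In brain, oligodendrocytes are rich in iron and make transferrin, the choroid plexus makes transferrin too, and microglia take up and store iron.

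The hairpins are shown because they are what the ferritin, ferroportin and receptor transcripts share. A search of GENCODE M21 transcripts for a 6-base loop, CAGTG followed by A, C or T, closed by 5 base pairs (G with T allowed) with a C before the stem on the 5′ side, found it in 222 of 21830 protein-coding genes, or 1.02%. It was found in 4 of the 10 genes: in the 5′ UTR of Fth1, Ftl1 and Slc40a1, where 0.105% of genes hold such a match, and in the 3′ UTR of Tfrc, where 0.458% do. Each line gives 27 bases of GRCm38, 5′ to 3′ on the gene's strand, with the loop in capitals. A match is a description of the sequence, not of binding.
Fth1 5′ UTR, chr19:9982733-9982759, plus strand: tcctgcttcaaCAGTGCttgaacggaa
Ftl1 5′ UTR, chr7:45459780-45459806, minus strand: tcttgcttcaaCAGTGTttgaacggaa
Slc40a1 5′ UTR, chr1:45925466-45925492, minus strand: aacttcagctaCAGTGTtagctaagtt
Tfrc 3′ UTR, chr16:32631220-32631246, plus strand: attatcggaagCAGTGCcttccataat
Tfrc 3′ UTR, chr16:32631599-32631625, plus strand: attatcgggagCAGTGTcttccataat
Tfrc 3′ UTR, chr16:32631664-32631690, plus strand: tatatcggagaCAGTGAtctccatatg
Tfrc 3′ UTR, chr16:32631711-32631737, plus strand: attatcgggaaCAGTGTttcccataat
The stems of Fth1 and Ftl1 have the same letters. The stem of Slc40a1 differs from theirs, and the 4 Tfrc hairpins lie in the same 3′ UTR. The transcripts of Hmox1, Trf, Slc11a2, Cp, Ireb2 and Aco1 held no match to these letters. The search allowed no unpaired base within the 5 pairs, so hairpins of another shape would be missed in any of them.

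Some facts of the libraries bear on every comparison. Whole reads recovered from the deposited values summed to between 16400328 and 17109734 per library. Zbp1 itself had 5 (WT) and 91 (PS19) reads, and 0 in the library labelled PS19 Zbp1+/-, where 1 intact allele is labelled. Xist had 11062, 13350 and 0 reads in the same order, and 4 Y-linked genes had between 268 and 711 reads in the library labelled PS19 Zbp1+/- and 0 in both others. The labels give no sex; sex and genotype therefore cannot be told apart in either comparison of that library. It also missed more weakly expressed genes: of 357 genes with 8 to 12 reads in both other libraries, 57 had 0 reads there, or 16%, against 2.14% for WT and 0.410% for PS19. Low counts in it are less certain than their intervals state.

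Across the 10 genes, 9 stood higher in PS19 than in WT, Tfrc being the exception, and 7 stood lower in the library labelled PS19 Zbp1+/- than in PS19. Among all genes tested, the share with a positive difference was 46.3% for PS19 against WT. That share was 53.7% for PS19 Zbp1+/- against PS19. The small differences changed sign with the scaling: Slc40a1 and Slc11a2 were lower in PS19 with the GC correction and Tfrc higher under rescaling to an equal FPKM sum, which also put Tfrc, Slc40a1 and Slc11a2 lower in PS19 Zbp1+/-. The difference used is that of log2(FPKM + 1), where FPKM counts reads per gene length, scaled by library; 1 unit is 2-fold. The genes tested were protein-coding and reached FPKM 1 in at least 1 of the libraries compared, and all 10 passed that filter in each comparison. Slc40a1, at an FPKM of 0.998 in WT and 1.03 in PS19, only just passed. For PS19 against WT, 1 of the 10 was at least 2-fold higher (Hmox1), beside 2.2% of all 12703 genes tested, and 0 were 2-fold lower, beside 0.291%. The median difference of the 10 was 0.29, and that of all genes -0.03. For PS19 Zbp1+/- against PS19, 3 were at least 2-fold lower (Ftl1, Trf and Hmox1), beside 5.16% of 12772 genes, and 0 were higher, beside 2%. With near-identical ferritin copies summed the Ftl1 call was lost, leaving 2. The median was -0.35, against 0.04 over all genes. Against WT the library labelled PS19 Zbp1+/- had 0 of 10 past 2-fold in either direction, beside 1.07% of 12436 genes higher and 2.28% lower, and a median of -0.17 against 0.01. Ftl1, at -0.99, and Trf, at -0.95, lay just short and passed with pseudocounts of 0.1 and 0.5 and under scaling by total reads or to an equal FPKM sum. With ferritin copies summed, Ftl1 lay farther short, at a read ratio of 0.694 to WT. At a threshold of 1.5-fold, 2 of the 10 were higher in PS19 than in WT (Hmox1 and Trf), beside 6.34% of all genes, and 0 were lower, beside 2.71%. Against PS19, the library labelled PS19 Zbp1+/- then had 0 of 10 higher, beside 9.37%, and 4 lower (Cp with the other 3), beside 12.1%. Against WT it had 0 higher, beside 6.71%, and 2 lower (Ftl1 and Trf), beside 7.12%. With ferritin copies summed, Ftl1 was short of 1.5-fold against WT too. The first and second comparison share the PS19 library, so a gene that is high in it moves up in the first and down in the second.

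**Figure D1:**
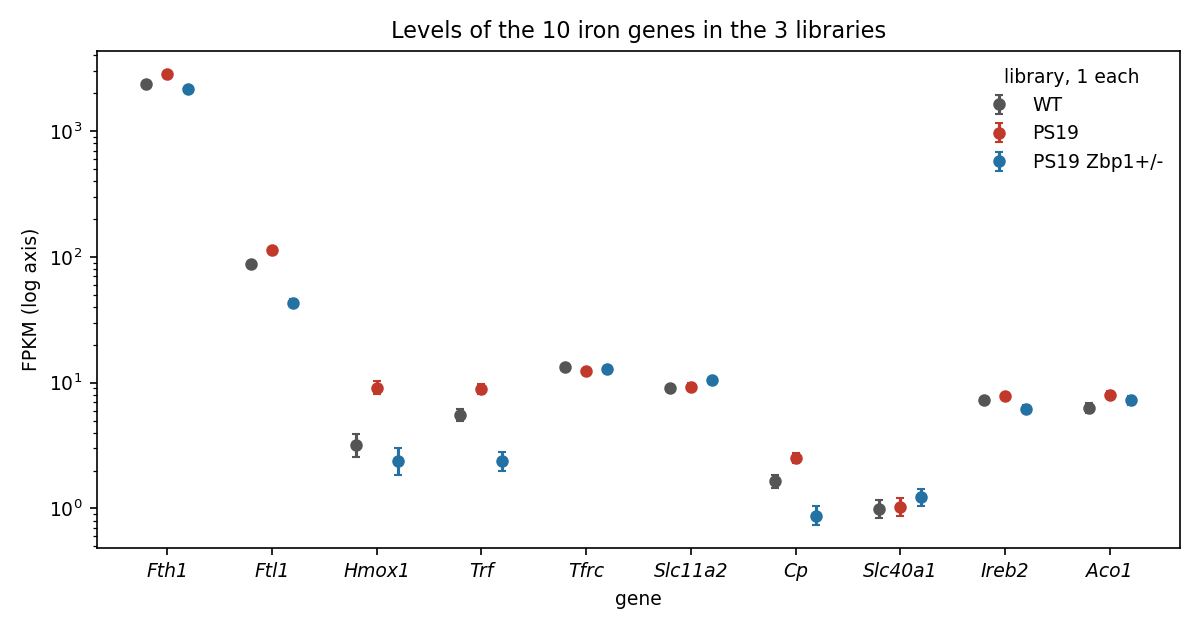
Level of each gene (FPKM, log axis) in the WT, PS19 and PS19 Zbp1+/- libraries; bars are 95% intervals for counting error, and each point is 1 library. Fth1 stands at 2146 or more in every library, while Hmox1, Trf, Ftl1 and Cp are highest in PS19 and lowest in PS19 Zbp1+/-.

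The order of the levels was the same in all 3 libraries at the top: Fth1, then Ftl1, Tfrc and Slc11a2, on the FPKM scale. Below these, neighbours were close. In WT the intervals of Ireb2 and Aco1, and of Aco1 and Trf, overlapped. In PS19 those of Slc11a2 and Hmox1, Hmox1 and Trf, Trf and Aco1, and Aco1 and Ireb2 overlapped. In the library labelled PS19 Zbp1+/- only Hmox1 and Trf did. Hmox1 took the fifth place in PS19 and the eighth in WT, and Slc40a1, last in WT and PS19, stood above Cp in PS19 Zbp1+/-.

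Ferritin transcripts were the most abundant of the set. Fth1 (ENSMUSG00000024661, chr19:9982703-9985092, plus strand), the heavy chain, had an FPKM of 2349 (WT), 2852 (PS19) and 2146 (PS19 Zbp1+/-), from 35099, 42692 and 29414 reads. PS19 was the highest library and PS19 Zbp1+/- the lowest, with no overlap of the counting intervals. The read ratio per library size was 1.21 for PS19 over WT (exact Clopper-Pearson 95% interval 1.20 to 1.23) and that of PS19 Zbp1+/- to PS19 was 0.753 (0.741 to 0.764). For PS19 Zbp1+/- over WT it was 0.914 (0.899 to 0.928), a difference of -0.13 that turned to 0.06 with a correction for GC content and length. At this depth such an interval excludes equality for most genes: for PS19 against WT the ratio was above 1 by this rule in 28.3% of all genes and below 1 in 32.7%, against 6 and 0 of the 10. For PS19 Zbp1+/- against PS19 the shares were 39% above and 32.6% below, against 1 and 6 of the 10, and against WT they were 35.3% and 31.3%, against 2 and 5.

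Ftl1 (ENSMUSG00000050708, chr7:45457944-45459884, minus strand), the light chain, had an FPKM of 87.0 (WT), 113.5 (PS19) and 43.2 (PS19 Zbp1+/-), from 2012, 2630 and 916 reads. The library labelled PS19 Zbp1+/- stood below both others, outside their counting intervals. The read ratio was 1.30 for PS19 over WT (1.23 to 1.38), 0.380 for PS19 Zbp1+/- over PS19 (0.352 to 0.410) and 0.496 for PS19 Zbp1+/- over WT (0.459 to 0.537). On the FPKM scale Fth1 was 27 times Ftl1 (WT), 25.1 (PS19) and 49.7 (PS19 Zbp1+/-).

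Light-chain reads were also assigned to copies of the gene. BLAST found 7 genes in the annotation that are near-identical to the Ftl1 transcript on the same strand, at 90% identity or more over at least 300 bases. One of them, Ftl2-ps (ENSMUSG00000082062, chr4:125504288-125504839, plus strand), a processed pseudogene 98.7% identical to Ftl1 over 552 bases with 7 mismatches, had 1 read (WT), 6 (PS19) and 347 (PS19 Zbp1+/-). The other copies had at most 39 reads each, the most in Ftl1-ps1, with 30, 39 and 23. Ftl1-ps2 also had reads only in the library labelled PS19 Zbp1+/-, with 0, 0 and 15. How reads that map to several places were handled is not given in the sources used here, and which of these genes the reads came from was not tested.

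Summed over Ftl1 and the 7 copies, light-chain reads numbered 2051 (WT), 2687 (PS19) and 1305 (PS19 Zbp1+/-). Ftl1 held 98.1% of them in WT (95% interval 97.4% to 98.6%), 97.9% in PS19 (97.3% to 98.4%) and 70.2% in PS19 Zbp1+/- (67.6% to 72.7%). The order of the libraries stayed the same, with a smaller gap. The summed read ratio was 1.31 for PS19 over WT (1.23 to 1.39), 0.531 for PS19 Zbp1+/- over PS19 (0.496 to 0.567) and 0.694 for PS19 Zbp1+/- over WT (0.647 to 0.744). The ratio of summed FPKM, which weighs the copies more, was 0.736 to PS19 and 0.965 to WT. On the read sum the difference of PS19 Zbp1+/- from PS19 was -0.90, no longer past 2-fold, against -1.37 for Ftl1 alone. Fth1 reads were 17.1, 15.9 and 22.5 times the summed light-chain reads, and its FPKM was 26.3, 24.3 and 24.9 times the summed FPKM, in which Ftl2-ps weighs more because its annotated length is shorter. Fth1 had a single near-identical copy, Gm6977, with 0 reads in every library. Gm10252, a gene model overlapping Ftl1 on the other strand, had 3, 0 and 0 reads.

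**Figure D2:**
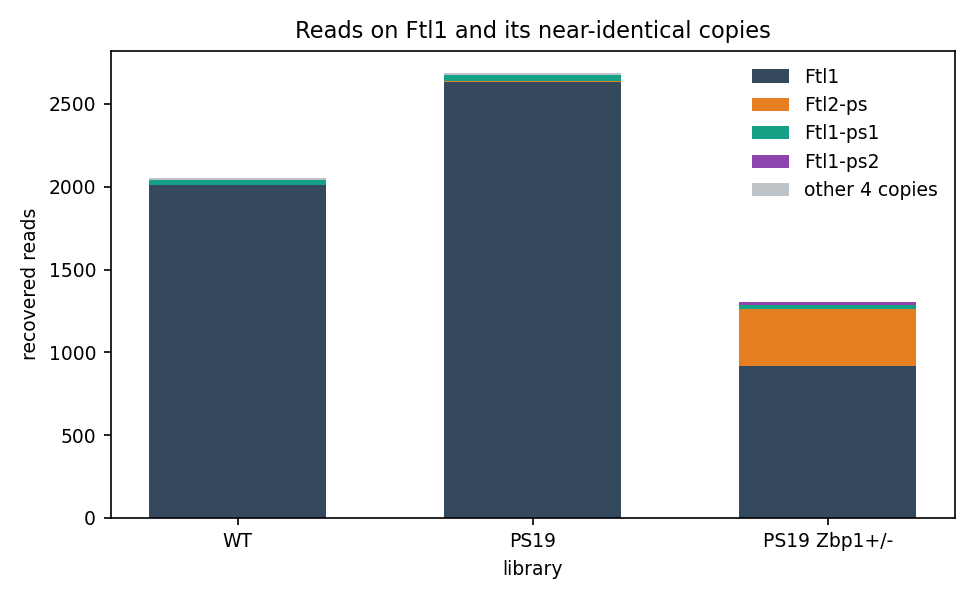
Recovered reads (not scaled to library size) assigned to Ftl1 and to its 7 near-identical copies, stacked, in the 3 libraries. Ftl1 holds nearly all of the 2051 and 2687 reads of WT and PS19, while 347 of the 1305 reads of PS19 Zbp1+/- lie on Ftl2-ps.

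Hmox1 (ENSMUSG00000005413, chr8:75093621-75100589, plus strand), the inducible enzyme that splits haem into biliverdin, carbon monoxide and iron, differed most of the 10 between PS19 and WT. Its FPKM was 3.18 (WT), 9.15 (PS19) and 2.38 (PS19 Zbp1+/-), from 96, 277 and 66 reads. Only PS19 stood apart: the intervals of WT and PS19 Zbp1+/- overlapped. The read ratio was 2.88 for PS19 over WT (2.28 to 3.67) and that of PS19 Zbp1+/- to PS19 was 0.260 (0.196 to 0.342). Between PS19 Zbp1+/- and WT it was 0.749 (0.539 to 1.04), which does not exclude equality. Hmox2, the constitutive haem oxygenase, had 868, 797 and 795 reads, an FPKM of 22.7, 20.8 and 22.7.

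Trf (ENSMUSG00000032554, chr9:103204001-103230444, minus strand), transferrin, had an FPKM of 5.52 (WT), 8.96 (PS19) and 2.38 (PS19 Zbp1+/-), from 316, 514 and 125 reads. The 3 libraries did not overlap. The read ratio was 1.62 for PS19 over WT (1.41 to 1.87), 0.266 for PS19 Zbp1+/- over PS19 (0.217 to 0.324) and 0.431 for PS19 Zbp1+/- over WT (0.348 to 0.532). The last is the difference of -0.95 given above. Choroid plexus and oligodendrocyte markers, whose cells make transferrin, were also lower in PS19 Zbp1+/-, the former 17.2-fold without Ttr (80-fold with it) and the latter 2.75-fold in summed FPKM relative to PS19; their part in the difference was not tested.

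Its receptor did not follow it. Tfrc (ENSMUSG00000022797, chr16:32608920-32632794, plus strand) had an FPKM of 13.2, 12.3 and 12.8 in WT, PS19 and PS19 Zbp1+/-, from 1411, 1312 and 1252 reads. No ratio excluded equality: 0.928 (0.860 to 1.001), 1.04 (0.964 to 1.13) and 0.967 (0.896 to 1.04) for PS19 over WT, PS19 Zbp1+/- over PS19 and PS19 Zbp1+/- over WT. The scaling moved these ratios by more than counting error: the difference of PS19 Zbp1+/- from PS19 was 0.06, but -0.21 with libraries rescaled to an equal FPKM sum and 0.23 with the GC correction. The signs turned under that rescaling in the first and second comparison, under scaling by total reads in the second and under the GC correction in the last. Slc11a2 (ENSMUSG00000023030, chr15:100387898-100425072, minus strand), the endosomal ferrous iron transporter, had an FPKM of 9.06, 9.31 and 10.4, from 993, 1023 and 1047 reads. Its ratio of PS19 Zbp1+/- to WT was 1.15 (1.05 to 1.25) and that of PS19 Zbp1+/- to PS19 1.12 (1.02 to 1.22). The latter turned to a difference of -0.11 with libraries rescaled to an equal FPKM sum, and also turned negative with total reads.

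Export genes diverged. Cp (ENSMUSG00000003617, chr3:19957054-20009145, plus strand), the ferroxidase that loads exported iron onto transferrin, had an FPKM of 1.65 (WT), 2.53 (PS19) and 0.878 (PS19 Zbp1+/-), from 272, 418 and 133 reads. The 3 libraries again stood apart from each other. The read ratio was 1.53 for PS19 over WT (1.31 to 1.79), 0.348 for PS19 Zbp1+/- over PS19 (0.284 to 0.423) and 0.533 for PS19 Zbp1+/- over WT (0.430 to 0.658). Because Cp is weakly expressed, its difference from PS19 was -0.91 with the pseudocount of 1 and -1.43 with 0.1. Slc40a1 (ENSMUSG00000025993, chr1:45908068-45926523, minus strand), ferroportin, the cell's iron exporter, had an FPKM of 0.998, 1.03 and 1.23, from 155, 160 and 175 reads. No ratio between its libraries excluded equality, the one farthest from 1 being 1.23 for PS19 Zbp1+/- over WT (0.986 to 1.54).

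The RNAs of the regulatory proteins moved little. Ireb2 (ENSMUSG00000032293, chr9:54863789-54912530, plus strand) had an FPKM of 7.29, 7.87 and 6.21, from 1192, 1290 and 932 reads. PS19 Zbp1+/- was the lowest library, at a ratio of 0.789 to PS19 (0.725 to 0.859) and 0.852 to WT (0.782 to 0.929), while PS19 over WT was 1.08 (0.997 to 1.17). Aco1 (ENSMUSG00000028405, chr4:40143081-40198338, plus strand), also the cytosolic aconitase, had an FPKM of 6.33, 7.99 and 7.24, from 491, 621 and 515 reads. PS19 was above WT at a ratio of 1.26 (1.12 to 1.42), and PS19 Zbp1+/- over PS19 was 0.906 (0.804 to 1.02). Both proteins are controlled mainly after transcription, which these data do not measure.

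**Figure D3:**
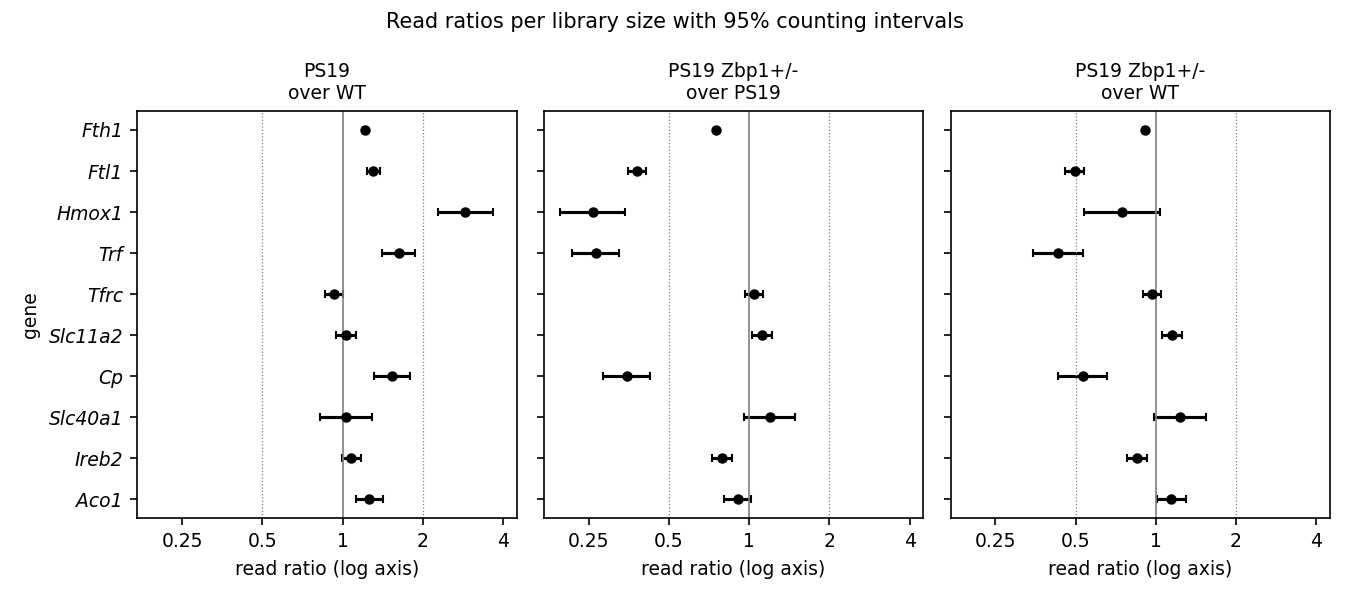
Read ratio per library size (log axis) for each of the 10 genes in the 3 comparisons; bars are exact 95% counting intervals, the solid line is equality and the dotted lines are 2-fold. Hmox1 is past 2-fold in the left panel, Ftl1, Hmox1, Trf and Cp lie under 0.5 in the middle panel, and Tfrc and Slc40a1 include 1 in all 3.

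RNA levels of the genes with a match differed among themselves. A hairpin in the 5′ UTR acts on translation, which these data do not measure, so control through the hairpins was not tested. Among the 5′ UTR carriers, Fth1 and Ftl1 were highest in PS19 and Slc40a1 was not, and Tfrc, with 4 hairpins in its 3′ UTR, had no ratio that excluded equality. The largest ratios, highest in PS19 and lowest in PS19 Zbp1+/-, were those of Ftl1, Hmox1, Trf and Cp. Of these 4 genes 1 had a match, beside 4 of all 10.

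Markers of several cell types moved in the same directions, and their part in the differences was not tested. In bulk RNA, fewer cells of a type and less RNA per cell cannot be told apart. Summed FPKM of 12 oligodendrocyte markers, led by Mbp, was 945 (WT), 1685 (PS19) and 612 (PS19 Zbp1+/-); 12 of 12 were higher in PS19 than in WT, and in PS19 Zbp1+/- 12 of 12 were under the PS19 level by 2-fold or more. Summed FPKM of 12 microglial markers, led by C1qa, was 196, 708 and 208, with 10 of 12 at least 2-fold higher in PS19 than in WT and 9 of 12 lower by as much in PS19 Zbp1+/- relative to PS19. Astrocyte markers, 8 genes led by Gfap, summed to 370, 1240 and 399, with 3 of 8 at least 2-fold higher in PS19 than in WT and 3 of 8 lower by as much in PS19 Zbp1+/- relative to PS19; without Gfap they summed to 271, 472 and 287. None of these markers was at 0 in any library.

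Choroid plexus markers followed another order. The 12 genes, led by Ttr, summed to an FPKM of 3453 (WT), 2191 (PS19) and 27.4 (PS19 Zbp1+/-), 80-fold lower than in PS19, with none at 0. Ttr made up 84.1% of the PS19 sum; without it the other 11 genes summed to 417, 349 and 20.3, 17.2-fold lower than in PS19. Choroid plexus lies beside the hippocampus and makes transferrin and ceruloplasmin. Between PS19 and WT these markers were lower in PS19 in 11 of 12 genes, while Trf and Cp were higher. Endothelial markers, 9 genes led by Cldn5, summed to 87.0, 94.6 and 89.3. Cldn5 alone was higher in PS19 Zbp1+/-, at 38.1 against 19.1 in PS19, while the other 8 were lower; without it the sums were 64.6, 75.5 and 51.2. Tfrc, which brain endothelium expresses strongly, was 15.2%, 13.0% and 14.3% of the full sum and 20.5%, 16.2% and 25% of the sum without Cldn5. Blood genes, 5 led by Hbb-bs, summed to 18.7, 15.8 and 3.20, with Slc4a1 at 0 in WT and PS19 Zbp1+/-. Hippocampal neuron markers, 8 genes led by Slc17a7, summed to 666, 555 and 777, and without Slc17a7 to 461, 382 and 406, with none at 0.

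Set against those sums, the iron genes differed. Trf FPKM was 0.584% (WT), 0.531% (PS19) and 0.389% (PS19 Zbp1+/-) of the oligodendrocyte sum, so that this ratio moved less than Trf itself, whereas against the choroid plexus sum it was 0.160%, 0.409% and 8.68%, or 1.32%, 2.57% and 11.7% without Ttr. Hmox1 was 1.62%, 1.29% and 1.15% of the microglial sum, so that this share was lower in PS19 than in WT while Hmox1 itself was higher. Ftl1 was 44.5%, 16% and 20.8% of the microglial sum. Cp was 0.446%, 0.204% and 0.220% of the astrocyte sum, but 0.607%, 0.535% and 0.307% of that sum without Gfap. These percentages describe 2 quantities of the same library and assign no transcript to a cell type.

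**Figure D4:**
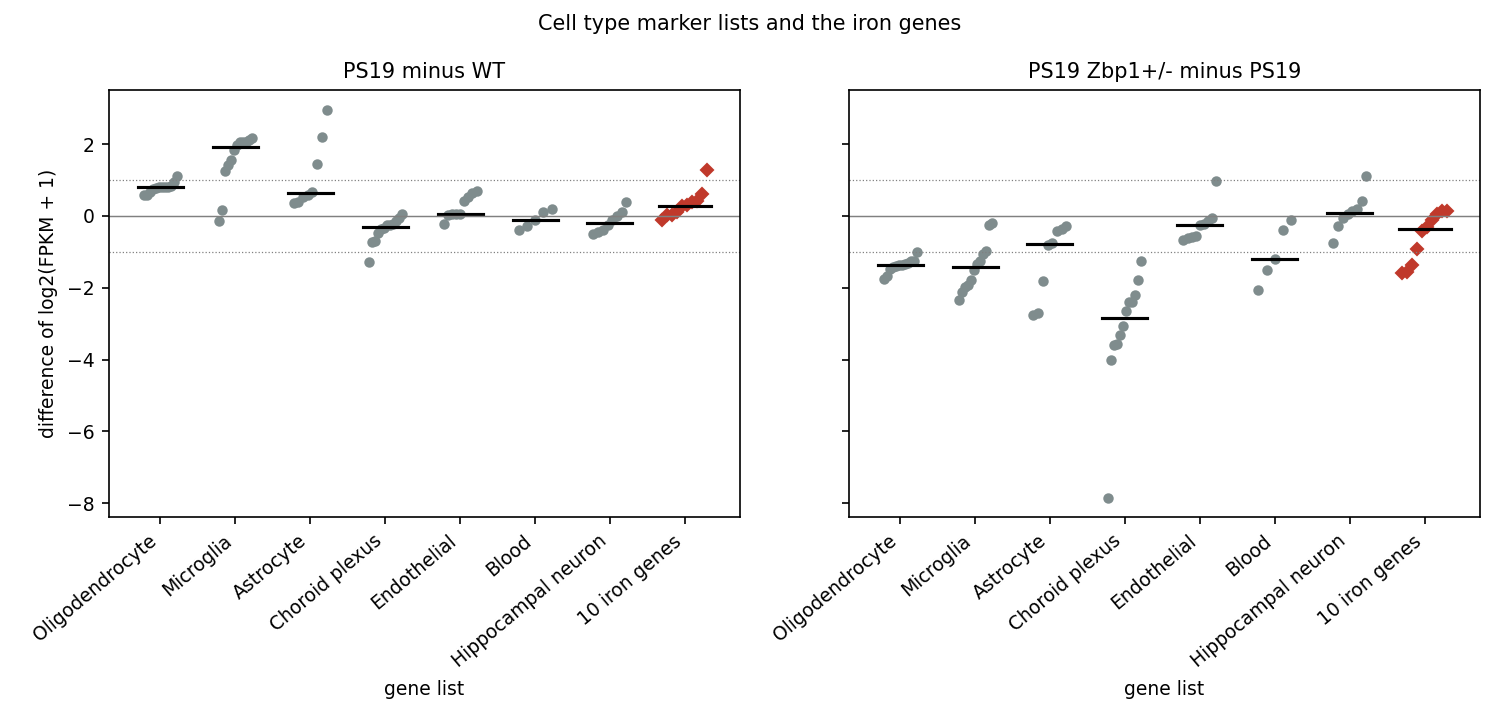
Difference of log2(FPKM + 1) for each marker gene (grey points), grouped by cell type, beside the 10 iron genes (red diamonds); the black bars are medians and the dotted lines are 2-fold. In the left panel (PS19 minus WT) the microglial median is 1.91 and that of the iron genes 0.29; in the right panel (PS19 Zbp1+/- minus PS19) the choroid plexus median is -2.85 and that of the iron genes -0.35.

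The wider iron pathway was read from 61 other genes, listed by role. Of these, 46 could be tested for PS19 against WT: 2 were at least 2-fold higher (Slc11a1 and Lcn2) and 0 lower, with a median of -0.01, beside 2.2% and 0.291% of all genes and a median of -0.03. In the second comparison, PS19 Zbp1+/- against PS19, 0 of 46 were higher and 7 lower, with a median of -0.11, beside 2% and 5.16% of all genes and a median of 0.04. Against WT, 0 of 44 were higher and 5 lower, with a median of -0.09, beside 1.07% and 2.28% and a median of 0.01.

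Slc11a1, the iron and manganese transporter of the phagosome in macrophages and microglia, had 30 reads (WT), 351 (PS19) and 61 (PS19 Zbp1+/-). It was far highest in PS19. Its read ratio of 11.7 for PS19 over WT (8.03 to 17.6), a difference of 2.14, was the largest increase among the 46 genes tested, and PS19 Zbp1+/- stood 1.67 lower than PS19 on the log2(FPKM + 1) scale. Lcn2, a siderophore-binding protein made by reactive astrocytes, had 11, 68 and 6 reads, with differences of 1.01 and -1.13. Cd163, the haemoglobin scavenger receptor of perivascular macrophages, had 37, 95 and 8 reads. PS19 stood at a read ratio of 2.56 to WT (1.74 to 3.85), and PS19 Zbp1+/- stood 10.9-fold below PS19 (5.30 to 25.9). As a weak gene it did not reach 2-fold on the log2(FPKM + 1) scale, at 0.53 and -0.88, while a pseudocount of 0.1 gave 1.17 and -2.52.

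Of 7 uptake and reduction genes tested, Lcn2 was 2-fold higher in PS19 than in WT, beside 2.2% of all genes. Lcn2, Steap1 and Steap2, 3 of the 7, stood 2-fold lower in PS19 Zbp1+/- relative to PS19, beside 5.16% of all genes. Steap1 and Steap2, of the metalloreductase family, had 106, 77 and 0 reads and 423, 623 and 82 reads across WT, PS19 and PS19 Zbp1+/-. Steap2 was 1.48 lower in PS19 Zbp1+/- relative to PS19, and Steap1, at 0 reads, was at least 23.5-fold lower against a floor of 3 reads. Scara5, a receptor for ferritin, had 63, 67 and 0 reads and was under the filter. Tfr2, the hepatic transferrin receptor, had 179, 126 and 177 reads, and Steap3, the main endosomal reductase of red cell precursors, 146, 218 and 129; neither was past 2-fold. Slc39a8, Steap4, Meltf and Ltf did not reach the filter.

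In the hepcidin axis, Hamp, the hormone that closes ferroportin, had 0 reads in every library. Bmp6, the ligand that induces hepcidin in liver, had 486, 640 and 73 reads, a difference of -2.27 for PS19 Zbp1+/- against PS19. Hfe, a membrane protein of the same axis, had 186, 222 and 38 reads and a difference of -1.46. Of 9 genes in this group 3 were tested, and all 3 were lower in PS19 Zbp1+/- relative to PS19, while 53.7% of all genes were higher. Past 2-fold were 2 of them, Bmp6 and Hfe, beside 5.16% of all genes. The other was Heph, whose ratio of 0.897 (0.690 to 1.16) did not exclude equality. Heph, the ferroxidase homologous to ceruloplasmin, had 136, 134 and 110 reads, an FPKM of 1.03, 1.01 and 0.907.

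Among regulators, Nfe2l2, the oxidative stress factor whose known targets include Hmox1 and both ferritin chains, had 425, 627 and 129 reads: 0.49 higher in PS19 than in WT and 1.75 lower in PS19 Zbp1+/- relative to PS19. Keap1, the adaptor through which the Nfe2l2 protein is degraded, had 1015, 1090 and 1287 reads, with PS19 Zbp1+/- the highest library. Fbxl5, which marks the Ireb2 protein for degradation, had 1658, 1891 and 1237 reads, an FPKM of 9.87, 11.2 and 8.02. Ncoa4, the receptor for ferritin turnover, had 702, 741 and 637 reads, an FPKM of 4.34, 4.58 and 4.30.

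Among tested genes of haem handling, haem synthesis and mitochondrial iron, 0 were past 2-fold on the log2(FPKM + 1) scale in any of the 3 comparisons, though Cd163 was with smaller pseudocounts. In haem handling, Lrp1, the receptor that clears haem bound to haemopexin among many ligands, had 8494, 13314 and 14215 reads and was 0.63 higher in PS19 and 0.84 higher in PS19 Zbp1+/- than in WT. In haem synthesis Alad had 465, 370 and 555 reads, 0.67 higher in PS19 Zbp1+/- than in PS19. Flvcr2, listed with haem handling, had 76, 78 and 39 reads, an FPKM of 1.26, 1.29 and 0.703. Of 11 genes for mitochondrial iron and iron-sulphur clusters, 10 were lower in PS19 than in WT, with a median of -0.14. The interval of the ratio lay below 1 for 6 of the 11, beside 32.7% of all genes tested. It lay above 1 for 0, beside 28.3%. Of all genes tested 46.3% were higher, with a median of -0.03. In PS19 Zbp1+/- against WT, 9 of the 11 were lower, with a median of -0.16, while 51% of all genes were higher. Against PS19, 6 of the 11 were higher and 5 lower.

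**Figure D5:**
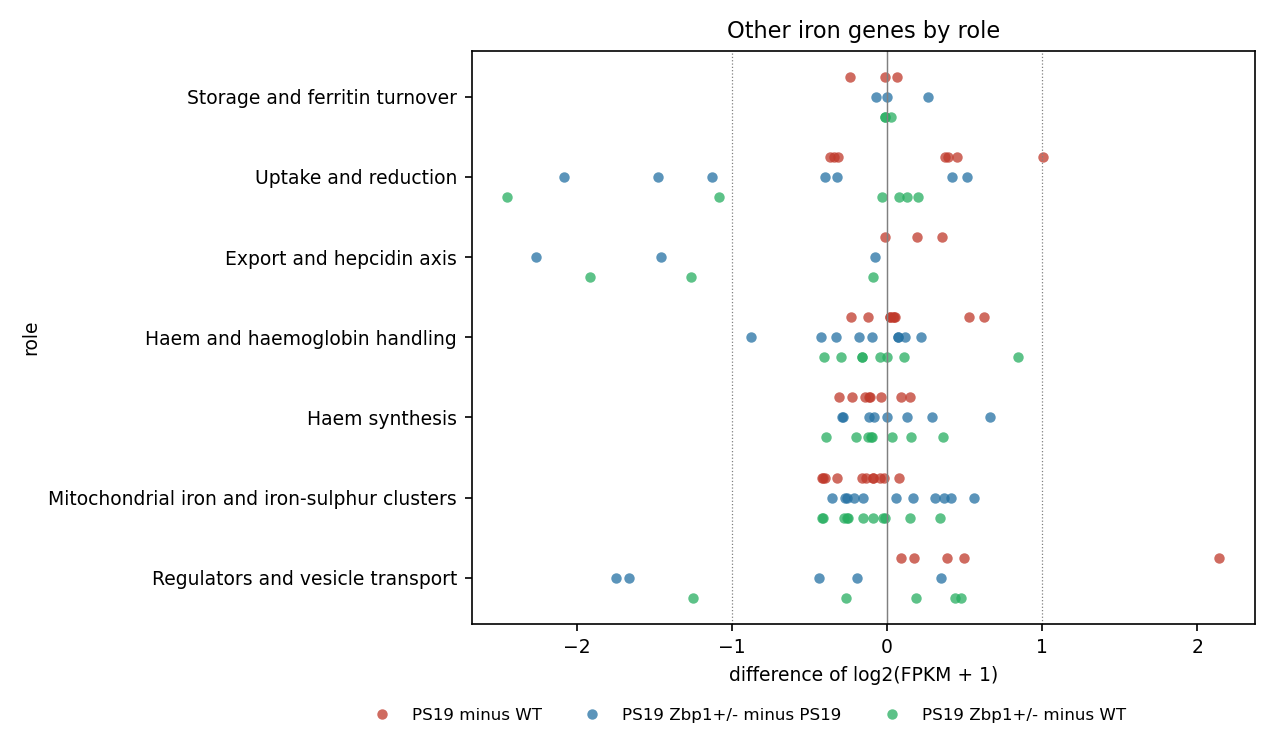
Difference of log2(FPKM + 1) for each tested gene of the wider iron pathway, by role, in the 3 comparisons; the dotted lines are 2-fold. Slc11a1 is the point at 2.14, and the points left of -1 are mostly differences of PS19 Zbp1+/- in uptake, hepcidin axis and regulator genes.

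Over 3 libraries, the genes most like 4 of the members were found by the distance between their pairs of differences (PS19 and PS19 Zbp1+/-, each against WT), among 7712 or 7713 genes with a mean FPKM of at least 5. Nearest to Ftl1 were Serpinf1 at 0.0637 and Tcn2 at 0.0703. Nearest to Trf were Cd63 at 0.0497 and Arrdc2 at 0.0958. Hmox1 was nearest to Msn at 0.0957 and Igfbp5 at 0.107, and Cp to Ctnna1 at 0.00610 and Idh2 at 0.00653. Within a distance of 0.1 lay 5 genes for Ftl1, 2 for Trf, 1 for Hmox1 and 10 for Cp. Cp itself lies under the level asked of its neighbours, at an FPKM of 1.65, 2.53 and 0.878 against 21.0, 28.2 and 14.5 for Ctnna1. The pseudocount of 1 shrinks the differences of Cp more, so its small distances do not mean equal fold changes. The distances describe these libraries alone.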

How the data were processed

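Hippocampal RNA was sequenced in 1 library per genotype, with libraries made by an NEB Next Ultra RNA kit per the labels' protocols. The submitters' processing notes name Trim Galore 0.6.5, STAR 2.5.3a, featureCounts 2.0.4 and the build mm39; strand and multi-mapping settings are not given in the sources used here. The authors deposited 1 table of FPKM values. Its gene positions match GENCODE M21 (GRCm38) for 98.3% of 54409 IDs and for 9 of the 10 genes (Fth1 differs in its ends), so positions are given as GRCm38. Every FPKM times gene length was a whole multiple of 1 step (tolerance 0.01 reads), in 100% of values, so whole reads were recovered. They summed to 16746085 (WT), 16400328 (PS19) and 17109734 (PS19 Zbp1+/-), with implied library sizes of 17253479, 17287957 and 15826984, which already hold a size-factor scaling (1.03, 1.03 and 0.945). No count test was run on the recovered reads, because 1 library per genotype leaves no replicate to estimate the spread.

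Differences of log2(FPKM + 1) were taken over protein-coding genes that reached FPKM 1 in at least 1 of the libraries compared, and called at 1 log2 unit; the pseudocount of 1 understates changes of weak genes. Read ratios per implied library size carry exact Clopper-Pearson 95% intervals, and a library at 0 reads was set to 3 reads. Without molecular identifiers, PCR copies of a molecule count as separate reads. Copies were sought with BLAST 2.17.0. The genes and lists were chosen with earlier results of these data known. Genes named were the 10, Zbp1, other iron genes past 2-fold or with a read ratio of 1.5 or more whose interval excludes 1, 6 fixed iron genes, ferritin copies with at least 20 reads, the top gene of each marker list and, per gene past 1.5-fold, its 2 nearest genes; Scara5, Keap1, Gm6977, Gm10252 and the sex-linked genes were named after their values were seen. The list symbol Hjv was matched as Hfe2. The alternatives were pseudocounts of 0.1 and 0.5, other filters, 4 other scalings or corrections (GC content was known for 99.9% of genes tested), summed ferritin copies and a 1.5-fold threshold. Marker sums without their top gene and the reads of Ftl1-ps2 were added after the data were seen. The procedure was tested on simulated data. Figures used matplotlib 3.10.9, and calculations scipy 1.17.1, pandas 2.3.3 and numpy 2.4.6 under Python 3.11.15. Some results that the rule would name are not reported here.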

Additional observations from a re-analysis of the deposited data

Results flagged for a closer look

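Reads on the ferritin light-chain pseudogene Ftl2-ps lay outside the genes compared: 1 in WT, 6 in PS19 and 347 in the library labelled PS19 Zbp1+/-, an FPKM of 0.105, 0.629 and 39.7. The read ratio of PS19 Zbp1+/- over PS19 was 63.2 (exact 95% interval 28.7 to 173). No replicate of that library is at hand to show whether the reads recur.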

How the results depend on the processing

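Of 183 values of the list counts and medians under the alternatives, 160 stayed within their limits and 23 moved. A change of sign was not labelled for lists. It did occur: the median of the other iron genes against PS19 turned from -0.11 to 0.030 with the filter on mean FPKM. Of 598 single-gene values 508 stayed, 90 moved and no called gene reversed. With libraries rescaled to the same FPKM sum (TPM), the median of the 10 genes was 0.41 for PS19 against WT, -0.62 for PS19 Zbp1+/- against PS19 and -0.31 against WT, and the median of the other iron genes -0.38 against PS19. Scaling by total reads gave -0.53 and -0.31 for the 10 genes and -0.29 for the others against PS19. These scalings also moved the median of all genes against PS19 from 0.04 to -0.21 and -0.12, against WT from 0.01 to -0.13 and -0.12, and, for PS19 against WT under TPM, from -0.03 to 0.08. The share of higher genes among all called genes against PS19 fell from 27.9% to 10.5% under TPM, 14.6% with total reads and 17.2% with the GC and length correction, and against WT from 32.0% to 17.1% and 17.3%. Ftl1 and Trf were past 2-fold lower than WT in PS19 Zbp1+/-, making 2 of 10 in place of 0, with pseudocounts of 0.1 and 0.5, under TPM and with total reads; 1 was with centring on the median. The GC and length correction brought that comparison's median to -0.0069, and a mean FPKM of at least 5 brought it to -0.087. With that filter the other iron genes had 0 higher for PS19 against WT, 2 lower and a median of 0.030 against PS19, and 0 lower against WT. At 1.5-fold, 2 of the 10 were higher in PS19 than in WT, 2 were lower in PS19 Zbp1+/- than in WT, and 1 other iron gene was higher against PS19 and 1 against WT; a pseudocount of 0.1 also gave 1 against WT. The cause of these shifts was not tested, except that the stricter filter tests fewer genes. With ferritin copies summed, 2 of the 10 in place of 3 were 2-fold lower than PS19 in PS19 Zbp1+/-. Against WT the summed light-chain read ratio was 0.694, short of 1.5-fold. Cp was past 2-fold lower than PS19 in PS19 Zbp1+/- with smaller pseudocounts, TPM and total reads.

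Steap1, with 0 reads, lies at the low end of its list, so that its bound leaves the list's median where it is. No paired analysis was possible because each genotype has 1 library; for the same reason no library was left out. Of the 10 genes, depth limits Hmox1, Trf and Cp most, with 66, 125 and 133 reads in their lowest library; genes near 10 reads are not resolved in the library labelled PS19 Zbp1+/-.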

Other observations

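Beyond the genes of the iron lists, every protein-coding gene with the iron-responsive loop and stem in its annotated transcripts was collected. Of 23 genes with a match in the 5′ UTR, 3 of them among the 10, 18 passed the filter for PS19 against WT: 0 were past 2-fold, the median difference was -0.09, and 6 were higher and 12 lower. Of all genes, 2.2% were past 2-fold higher, 0.291% past 2-fold lower, and 46.3% higher by any amount. For PS19 Zbp1+/- against PS19, 1 of 19 was 2-fold higher and 1 lower, with a median of -0.01, beside 2% and 5.16% of all genes. Of 100 genes with a match in the 3′ UTR, 76 passed it for PS19 against WT, where 1 was 2-fold higher and 0 lower, with a median of -0.04, against -0.03 over all genes. Between PS19 Zbp1+/- and PS19, 2 of 77 were 2-fold higher and 3 lower, with a median of 0.08 against 0.04 over all genes. A match is one of letters only.

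Within the wider iron pathway, Alas2, the red cell enzyme that starts haem synthesis, also holds a match in its 5′ UTR. The line shows 27 bases of GRCm38, with the loop in capitals.
Alas2, chrX:150547459-150547485, plus strand: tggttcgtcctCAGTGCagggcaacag
Alas2 had 14 reads (WT), 5 (PS19) and 9 (PS19 Zbp1+/-), too few to pass the filter.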
